A study of Homo sapiens with 16 samples.

Results

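The HOX cluster genes were followed in 2 bladder cancer cell lines after transfection of siRNAs against FOXA1. A gene was a member when its name in the count file was HOX, a letter from A to D and digits alone, which took in 39 genes of 58721 in all. They stand in 40 rows, because HOXC5 has 2 identifiers, and both rows hold 0 in all 16 libraries. RT112 is a bladder cancer line of the luminal type and SCaBER one of the basal type. Cells of each line were transfected with 10 nM, per the labels, of siControl.1 or siControl.2, which were the controls, or of siFOXA1.1 or siFOXA1.2, both directed against FOXA1, a forkhead transcription factor. Each siRNA had 2 libraries per line, labelled as replicates of the experiment batch. RT112 was grown in RPMI and SCaBER in DMEM, both with FBS, so that line and medium cannot be told apart, and each type of bladder cancer is represented by 1 line.

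HOX genes encode homeodomain transcription factors and lie side by side in 4 clusters, HOXA to HOXD. Within a cluster the genes are numbered by position, and genes with low numbers are expressed further forward along the body axis, and earlier, than the posterior genes with high numbers. Many HOX proteins bind DNA with PBX and MEIS cofactors, silent HOX genes are held by Polycomb proteins, and adult tissues, the urogenital tract among them, retain part of their positional HOX expression. In the GRCh38.p14 annotation HOXA spans chr7:27092993-27200091 with 11 members, HOXB chr17:48528526-48728750 with 10, HOXC chr12:53938831-54056030 with 9 and HOXD chr2:176087487-176190907 with 9.

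Library totals were 6622473 to 7604581 counts in RT112 and 4528513 to 6914951 in SCaBER. A floor of 3 counts, taken as the limit of detection, corresponded to 0.394 to 0.453 CPM (the count over the library's sum, scaled) in RT112 and 0.434 to 0.662 CPM in SCaBER, and covers counting error alone. The labels do not say whether the 2 replicates of an siRNA came from separate cultures, so the p-values measure only the spread between these libraries. In RT112 siControl, FOXA1 had 266 and 195 counts with siControl.1, and 137 and 204 with siControl.2. It had 9 and 22 counts with siFOXA1.1 and 63 and 117 with siFOXA1.2. The siFOXA1.1 fall was -3.45 ± 0.473 on the log2 scale (SE, adjusted p = 1.39e-05), whereas siFOXA1.2 gave -1.10 ± 0.390 (adjusted p = 0.215). In SCaBER FOXA1 was near the floor throughout, with 3 to 15 counts under siControl, 0 and 3 under siFOXA1.1, and 0 and 6 under siFOXA1.2, so that the knock-down could not be checked there. Under siControl all 7 luminal markers tested of 9 were higher in RT112, with KRT20 and UPK3A at 0 in both lines. Of the 9 basal markers tested 7 were higher in SCaBER. The other called was KRT16, which was higher in RT112 (mean of 56.0 CPM against 30.4 in SCaBER). Of all genes tested 21.2% were called higher and 22.2% lower in RT112.

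Both lines expressed members of HOXA, HOXB and HOXC, whereas no HOXD member had a count in the SCaBER siControl libraries. Under siControl, 19 of the 39 members were over the floor in all 4 RT112 libraries and 20 in all 4 SCaBER libraries. HOXC5, HOXD12 and HOXD13 had no count in any of the 16 libraries, and the floor allows up to 3 counts in each. The summed level of the family was 243 ± 3.63 CPM in RT112 and 385 ± 35.6 CPM in SCaBER (SD, n = 4 each). The HOXB cluster held 52.1% ± 4.96 of that sum in RT112, and the HOXA cluster 68.7% ± 3.74 in SCaBER (SD, n = 4 each). The share of HOXD was 12.0% ± 3.59 in RT112 and 0 in SCaBER siControl. Members of number 9 and above made up 18.5% ± 5.27 of the family's CPM in RT112 and 47.6% ± 2.21 in SCaBER (SD, n = 4 each).

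**Figure D1:**
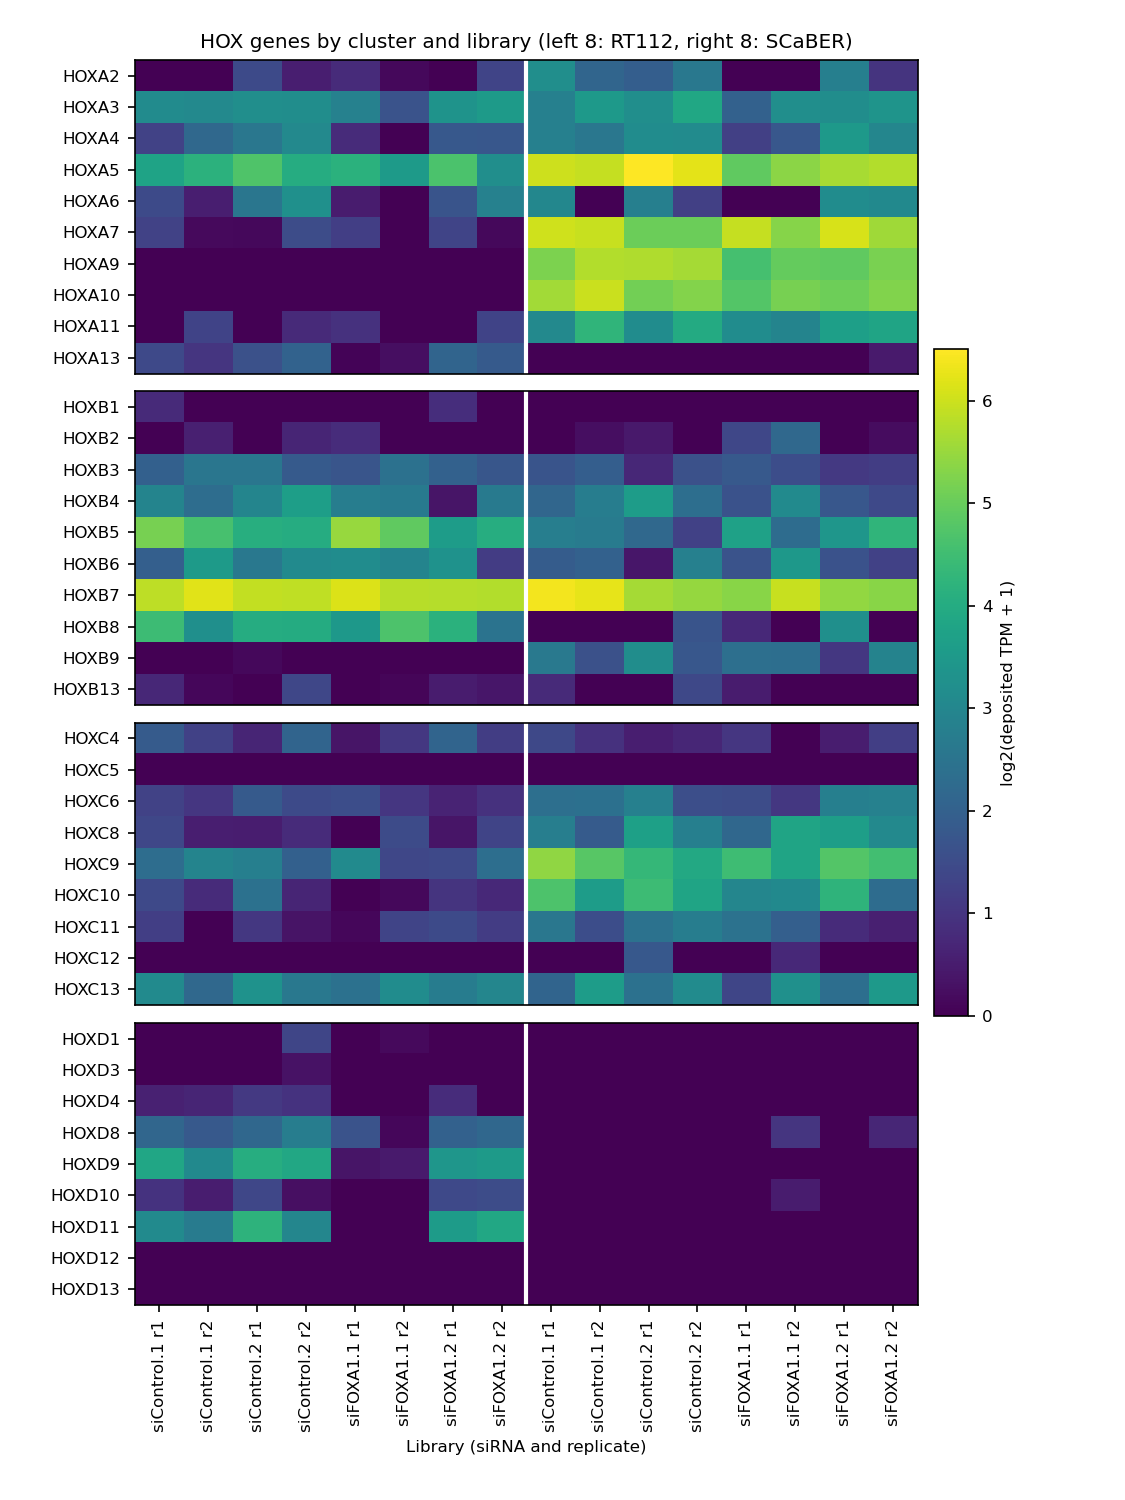
Level of the HOX genes shown (rows, by cluster and number) in the 16 libraries (columns, RT112 left and SCaBER right), as the colour of log2(TPM + 1). HOXA7, HOXA9 and HOXA10 are bright in SCaBER alone, and HOXD9 and HOXD11 are seen in RT112 and are dark or nearly so in its 2 siFOXA1.1 libraries.

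Levels of different genes were compared on the deposited TPM, which divides by gene length, although a 3' protocol reads each transcript near its end whatever its length. In RT112 siControl HOXB7 was highest at 62.01 ± 7.43 TPM (SD, n = 4), and its lowest library, at 57.4, was above every library of any other member. HOXB5 followed at 22.5 ± 9.15 TPM, HOXA5 at 17.6 ± 5.42 and HOXB8 at 14.9 ± 5.16 (SD, n = 4 each), and these did not differ beyond their spread, since the ranges of neighbours overlap. In SCaBER siControl the highest were HOXA5 at 72.3 ± 13.1 TPM and HOXB7 at 62.2 ± 19.4, then HOXA7 at 47.3 ± 17.8, HOXA9 at 47.3 ± 7.41 and HOXA10 at 45.4 ± 12.7 (SD, n = 4 each). The ranges of neighbours in that order overlap here too, although HOXA5, from 60.55 to 89.72 TPM, lay above HOXA9, from 36.56 to 52.68. HOXB7, a central HOXB gene, was thus among the highest members of both lines.

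The difference between the lines was tested in the 4 siControl libraries of each, and 18 of the 28 members tested were called, 7 higher and 11 lower in RT112 than in SCaBER. Of all genes tested 43.4% were called in either direction, 21.2% higher and 22.2% lower in RT112. The members' median log2 difference was 0.23, against 0.02 for all genes. HOXA2, HOXA5, HOXA7, HOXA9 to HOXA11, HOXB9 and HOXC8 to HOXC11 were higher in SCaBER, whereas HOXD8, HOXD9, HOXD11, HOXA13, HOXB3, HOXB5 and HOXB8 were higher in RT112. Adjusted p-values throughout are from edgeR's quasi-likelihood test with Benjamini-Hochberg adjustment over all genes tested, at a threshold of 0.05. Counts per library are given below in the order siControl.1 replicates 1 and 2, then siControl.2 replicates 1 and 2.

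HOXA9 and HOXA10, neighbouring genes known for their part in blood-forming cells and in the uterus, marked the widest separation of the lines. HOXA9 had 267, 386, 384 and 256 counts in SCaBER and 0 in all 8 RT112 libraries. HOXA10 had 426, 559, 304 and 250 counts in SCaBER and also 0 in all 8 of RT112. Against the floor, taken over each group's library totals, SCaBER was at least 134-fold higher for HOXA9 and at least 158-fold higher for HOXA10. HOXA10-AS, the RNA transcribed antisense to HOXA10, had 464, 321, 414 and 407 counts in SCaBER and 0 in RT112, and was at least 171-fold higher. In the exon models of GENCODE release 44 on GRCh37, HOXA10-AS covers 16.4% of the exon bases of HOXA10 and 13.9% of those of HOXA9 on the other strand. The promoter windows of both genes in RefSeq (GRCh38.p14, both on the minus strand, 250 bases before to 50 after the annotated start) are shown because these genes separate the lines most. That of HOXA9 is chr7:27165488-27165787 and that of the upstream start of HOXA10 is chr7:27179812-27180111. Neither held a match to the forkhead or to the PBX and HOX letters given further on, so no letter is in capitals.

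HOXA9: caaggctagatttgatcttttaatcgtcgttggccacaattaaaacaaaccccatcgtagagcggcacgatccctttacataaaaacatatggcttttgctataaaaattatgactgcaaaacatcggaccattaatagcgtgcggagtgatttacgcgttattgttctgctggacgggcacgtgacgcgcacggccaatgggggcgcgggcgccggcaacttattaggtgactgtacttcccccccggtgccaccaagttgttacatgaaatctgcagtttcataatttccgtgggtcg
HOXA10: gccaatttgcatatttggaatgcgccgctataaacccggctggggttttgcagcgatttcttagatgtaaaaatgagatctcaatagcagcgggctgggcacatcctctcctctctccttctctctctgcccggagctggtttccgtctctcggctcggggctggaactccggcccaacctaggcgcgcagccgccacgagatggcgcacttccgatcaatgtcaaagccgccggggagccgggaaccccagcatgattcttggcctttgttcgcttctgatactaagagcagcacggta

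The rest of the HOXA cluster was graded. HOXA7 had 375, 354, 189 and 135 counts in SCaBER against 14, 1, 1 and 16 in RT112, 41.2-fold by summed counts (counting interval 28.998 to 60.5). Counting intervals here and below are at 95% and cover counting error alone, not the spread between libraries. HOXA11, a gene of limb, kidney and uterus, had 41, 101, 45 and 60 counts in SCaBER against 0, 12, 0 and 6 in RT112. HOXA5 had 263, 250, 375 and 225 counts in SCaBER and 86, 102, 159 and 94 in RT112, a log2 difference of -1.65 ± 0.251 (SE, adjusted p = 7.97e-05). For these 3 genes the lines do not overlap. HOXA2, an anterior gene of the hindbrain, had 49, 20, 17 and 22 counts in SCaBER against 0, 0, 16 and 4, which was called at adjusted p = 0.0403 and lost when any of 5 single libraries was left out. HOXA13, the last gene of the cluster and one of distal limb and lower urinary tract, went the other way, with 35, 18, 39 and 57 counts in RT112 and 0 in all 4 SCaBER libraries. RT112 was at least 9.66-fold higher for it. In RT112 the cluster was thus read at both ends, HOXA3 to HOXA5 and HOXA13, with HOXA9 and HOXA10 at 0 between them.

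HOXA3, HOXA4 and HOXA6 were not called between the lines. HOXA3 had 134, 110, 131 and 126 counts in RT112 and 64, 109, 88 and 103 in SCaBER. The edgeR fit, which scales for the library totals, gave a log2 difference of 0.12 with a 95% interval of -0.441 to 0.674. HOXA4 had 10, 22, 32 and 46 counts in RT112 and 26, 21, 34 and 24 in SCaBER. HOXA6 varied from 2 to 40 counts in RT112 and 0 to 22 in SCaBER, so libraries of 1 group spanned nearly its whole range.

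The HOXB cluster was read from HOXB3 to HOXB8 in RT112. HOXB7 had 350, 390, 334 and 321 counts in RT112 and 303, 278, 181 and 116 in SCaBER, and was not called (log2 difference 0.40, 95% interval -0.0635 to 0.856). HOXB5 had 285, 168, 120 and 113 counts in RT112 against 29, 27, 18 and 5 in SCaBER, a log2 difference of 2.85 ± 0.450 (SE, adjusted p = 0.000115). HOXB8 had 172, 60, 115 and 111 counts in RT112, whereas 3 of the 4 SCaBER libraries were at 0 and the other at 8. The groups of HOXB5 and HOXB8 do not overlap. HOXB9, the next gene, was the reverse, with 32, 13, 51 and 11 counts in SCaBER and 1 count in RT112 in all, a ratio of 134 whose counting interval runs from 23.5 to 5339. HOXB3 had 88, 126, 135 and 69 counts in RT112 and 40, 52, 12 and 27 in SCaBER, which was called at adjusted p = 0.0202 but not without RT112 siControl.1 replicate 2, without RT112 siControl.2 replicate 1 or by limma on TPM. HOXB4 had 100, 53, 94 and 156 counts in RT112 against 31, 52, 102 and 27, and HOXB6 30, 97, 49 and 72 against 17, 19, 2 and 28, and neither was called. HOXB13, a posterior gene known from the prostate, had 0 to 20 counts in RT112 and 0 to 10 in SCaBER, and HOXB1 and HOXB2 at most 7 in either line's controls.

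In the HOXC cluster 4 adjoining genes were higher in SCaBER. HOXC9 had 169, 111, 79 and 42 counts in SCaBER against 27, 39, 37 and 18 in RT112 (log2 difference -1.98 ± 0.434 SE, adjusted p = 0.00172). HOXC10 had 140, 62, 120 and 53 counts against 16, 6, 38 and 5 (-2.85 ± 0.580 SE, adjusted p = 0.000978). Neither gene's groups overlap. HOXC8 had 27, 12, 55 and 20 counts against 12, 3, 3 and 5 (adjusted p = 0.0115), and HOXC11 39, 15, 36 and 33 against 17, 0, 13 and 3 (adjusted p = 0.0449). The call of HOXC11 was lost when any of 6 single libraries was left out, and that of HOXC8 without SCaBER siControl.2 replicate 1. HOXC13, a gene of hair and nail, had 74, 30, 80 and 44 counts in RT112 and 19, 65, 26 and 33 in SCaBER, and was not called, and HOXC6 had 20, 13, 34 and 22 against 36, 37, 53 and 12. HOXC4 had 6 to 32 counts in RT112 and 3 to 11 in SCaBER. HOXC4, HOXC5 and HOXC6 share exons on 1 strand, so their counts may be split between them.

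Under siControl the HOXD members were read in RT112 alone, although HAGLROS, a noncoding RNA of that cluster, had 8, 5, 9 and 12 counts in SCaBER. HAGLR and HOXD-AS2, also noncoding RNAs of that cluster, were over the floor in 3 of the 4 SCaBER libraries, with up to 17 and 27 counts. Under siControl HOXD9 had 100, 49, 107 and 93 counts, HOXD11 64, 41, 136 and 53, and HOXD8 36, 23, 34 and 54. All 4 SCaBER siControl libraries were at 0 for every HOXD gene. RT112 was at least 22.5-fold higher for HOXD9, at least 18.9-fold for HOXD11 and at least 9.56-fold for HOXD8. The other HOXD genes with a count there were lower, with 2 to 16 counts of HOXD10, 3 to 6 of HOXD4, 0 to 3 of HOXD3 and 0 to 11 of HOXD1.

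**Figure D2:**
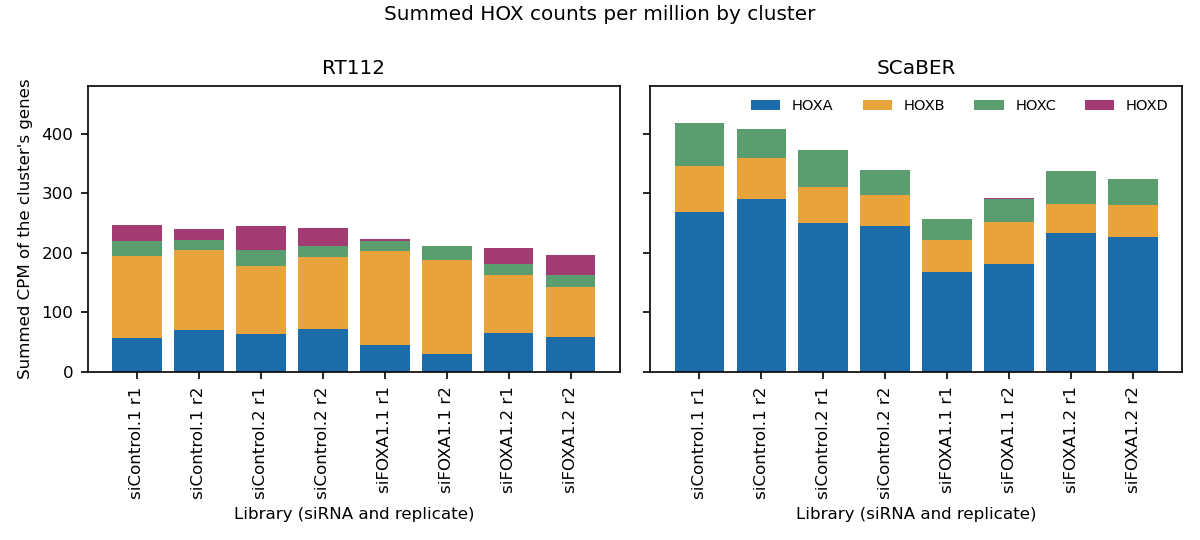
Summed CPM of each HOX cluster (stacked bars, y axis from 0) in each library, with RT112 on the left and SCaBER on the right. HOXB is the largest part in RT112 and HOXA in SCaBER, and the HOXD part of RT112, 28.1 to 32.6 CPM with siFOXA1.2, is 0.737 and 3.51 CPM with siFOXA1.1.

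With siFOXA1.1 in RT112 HOXD9, HOXD11 and HOXA13 fell and HOXB5 rose, and with siFOXA1.2 no member was called. Against both controls siFOXA1.1 changed 4 of the 26 members tested, 1 higher and 3 lower. DESeq2 and limma called 6 members each, and 7 were at an unadjusted p under 0.05 in edgeR. Of all genes tested 29.1% were called, 14% higher and 15.1% lower, and the members' median log2 difference was -0.03 against -0.02 for all genes. Summed over the cluster, HOXD went from 29.2 ± 8.92 CPM under siControl (SD, n = 4) to 2.13 ± 1.964 under siFOXA1.1 (SD, n = 2), and was 30.4 ± 3.20 under siFOXA1.2 (SD, n = 2). The share of mitochondrial reads was 26.99% ± 1.77 under siFOXA1.1 and between 18.5% and 20.7% on average under the other 3 siRNAs (SD, n = 2 each). The siFOXA1.1 libraries had 13796 and 14061 genes with a count, against 14730 to 15141 in the other RT112 libraries. The summed luminal markers, of which 7 of 9 were over the floor in every RT112 library and KRT20 and UPK3A were at 0 under siControl, ran from 1964 to 2498 CPM under siControl, from 1108 to 1226 under siFOXA1.1 and from 1647 to 1687 under siFOXA1.2. The part of the mitochondrial share, of the genes with a count or of the luminal markers in the HOX changes was not tested.

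HOXD11 and HOXD9 are posterior HOXD genes known from limb and urogenital development. HOXD11 had 0 counts in both siFOXA1.1 libraries, 64, 41, 136 and 53 under siControl and 81 and 110 under siFOXA1.2. It was at least 22.7-fold lower under siFOXA1.1 than under siControl and at least 30.4-fold lower than under siFOXA1.2, against the floor over each group's totals (adjusted p = 1.18e-05 and 1.21e-05). HOXD9 had 2 and 3 counts under siFOXA1.1, 100, 49, 107 and 93 under siControl and 64 and 75 under siFOXA1.2. The summed ratio of siControl to siFOXA1.1 was 32.8 (counting interval 13.9 to 102), and the log2 difference was -4.82 ± 0.696 (SE, adjusted p = 2.50e-05). For both genes the siFOXA1.1 libraries lay below all other RT112 libraries, and both calls held in each of the 18 alternatives tried. HOXD10, which lies between them and shares 18.2% of its exon bases with HOXD11 on 1 strand, had 0 counts in both siFOXA1.1 libraries, 10, 4, 16 and 2 under siControl and 16 and 19 under siFOXA1.2, and was not called (adjusted p = 0.109). HOXD8 had 22 and 1 counts under siFOXA1.1, against 36, 23, 34 and 54 under siControl and 28 and 35 under siFOXA1.2 (adjusted p = 0.277), so that 1 of its siFOXA1.1 libraries was near the controls.

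HOXA13 was the other member to fall. It had 1 and 4 counts under siFOXA1.1, 35, 18, 39 and 57 under siControl and 58 and 50 under siFOXA1.2. The log2 difference from siControl was -3.55 ± 0.957 (SE, adjusted p = 0.00795) and that from siFOXA1.2 was -4.20 ± 1.02 (SE, adjusted p = 0.0047). Its siFOXA1.1 libraries lay below all others, and 1 alternative, the fit of all 16 libraries together, ended the calls (adjusted p = 0.098 and 0.0793). HOXA4 and HOXA6, central HOXA genes, had 5 and 0 and 2 and 0 counts under siFOXA1.1, against 10 to 46 and 2 to 40 under siControl, and neither was called (adjusted p = 0.109 and 0.142). HOXC10 had 0 and 1 counts under siFOXA1.1 and 16, 6, 38 and 5 under siControl, with adjusted p = 0.122.

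**Figure D3:**
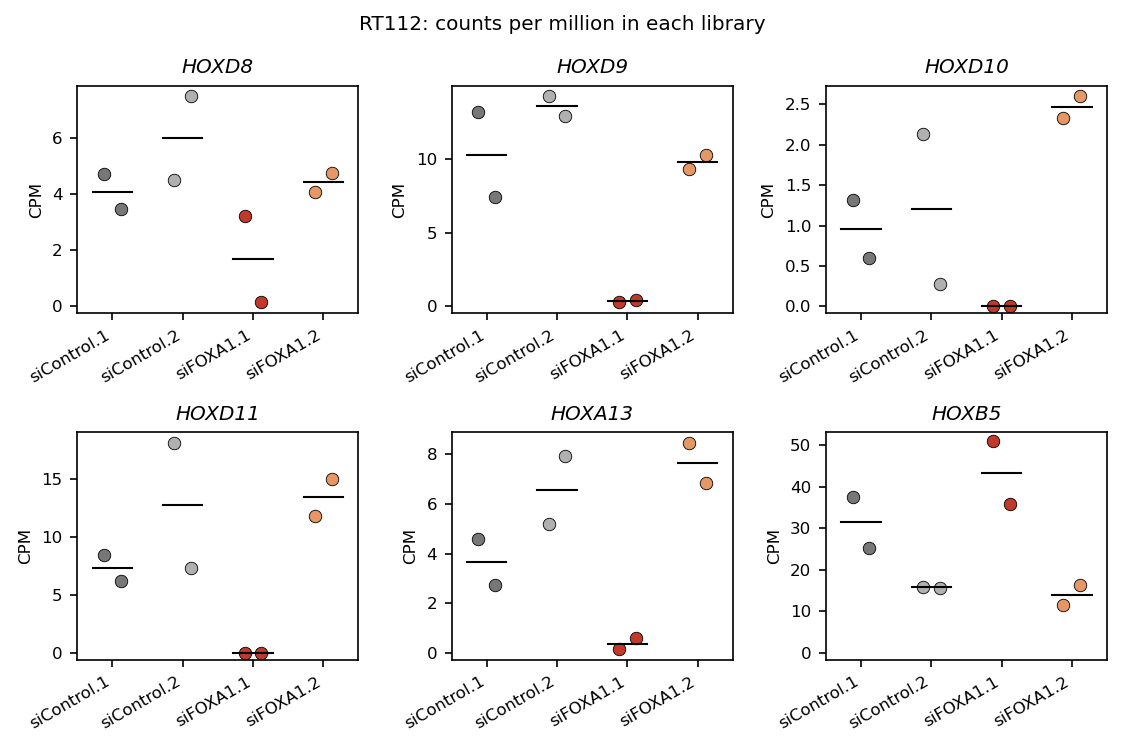
CPM of 6 HOX genes in each RT112 library (points) by siRNA, with the mean of the 2 libraries as a line. HOXD9, HOXD11 and HOXA13 lie at or near 0 under siFOXA1.1 and within or near the control range under siFOXA1.2, whereas HOXB5 is highest under siFOXA1.1.

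The promoter windows of HOXD11, HOXD10 and HOXA13 (RefSeq, GRCh38.p14) are shown because HOXD11 and HOXA13 fell and HOXD10 lies beside HOXD11 with no count under siFOXA1.1. HOXD9 is named only. Windows were matched for 20 of the 39 members, 27 windows in all. A forkhead motif, read on either strand as TGTTTAC, its variant TGTTTGC, a further form TATTTAC or its variant TATTTGC, was in none of these 3 windows, in 14.8% of the 27 HOX windows and in 12.1% of the 35116 windows of all genes. HOXC4 and HOXC5 have the same window, which holds that motif and was counted under both names, and HOXA3 has several of the 27. The HOX share is therefore not one of distinct windows, and does not show more forkhead matches than in all genes. A PBX and HOX motif, TGATTNAT on either strand, was in 7.41% of the HOX windows and 2.82% of all. Of the 3, HOXD11 alone held one, in capitals, on the strand opposite to the letters as given and beginning at -67 from the annotated start. HOXA2 and HOXD11 were the 2 members with this motif. HOX windows held a median of 22 CpG pairs against 14 over all windows, at a like GC content of 58% and 58.7%.

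HOXD11: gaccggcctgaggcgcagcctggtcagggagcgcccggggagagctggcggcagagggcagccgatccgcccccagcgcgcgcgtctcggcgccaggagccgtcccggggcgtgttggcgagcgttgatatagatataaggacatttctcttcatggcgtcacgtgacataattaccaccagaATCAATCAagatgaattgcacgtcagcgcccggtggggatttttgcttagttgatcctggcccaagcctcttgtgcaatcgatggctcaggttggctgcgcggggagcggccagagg
HOXD10: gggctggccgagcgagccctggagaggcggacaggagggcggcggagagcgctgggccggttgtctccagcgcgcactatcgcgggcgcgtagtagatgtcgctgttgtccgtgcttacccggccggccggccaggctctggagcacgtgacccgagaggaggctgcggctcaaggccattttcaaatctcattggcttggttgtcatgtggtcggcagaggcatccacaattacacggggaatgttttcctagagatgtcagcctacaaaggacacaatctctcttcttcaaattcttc
HOXA13: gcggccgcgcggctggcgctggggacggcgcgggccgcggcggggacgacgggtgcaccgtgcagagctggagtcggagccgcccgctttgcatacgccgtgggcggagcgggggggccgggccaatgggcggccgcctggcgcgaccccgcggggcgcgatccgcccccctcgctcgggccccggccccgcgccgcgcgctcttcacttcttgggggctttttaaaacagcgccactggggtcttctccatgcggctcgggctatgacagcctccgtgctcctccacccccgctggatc

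The windows of HOXD11 (chr2:176107030-176107329) and HOXD10 (chr2:176116528-176116827) are on the plus strand and that of HOXA13 (chr7:27200042-27200341) is on the minus strand. The difference between the 2 FOXA1 siRNAs was itself called for 4 of 26 members, HOXB5 higher and HOXD11, HOXD9 and HOXA13 lower with siFOXA1.1, against 24.7% of all genes, 11.4% higher and 13.3% lower. Both comparisons of siFOXA1.1 share its 2 libraries.

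HOXB5, a gene of the gut, lung and neural crest, was the member that rose. It had 349 and 243 counts under siFOXA1.1, 285, 168, 120 and 113 under siControl and 79 and 120 under siFOXA1.2. The log2 difference of siFOXA1.1 was 1.08 ± 0.272 from siControl (SE, adjusted p = 0.00485) and 1.74 ± 0.336 from siFOXA1.2 (SE, adjusted p = 0.000675). The siFOXA1.1 libraries overlap the siControl libraries, because siControl.1 replicate 1 had more than siFOXA1.1 replicate 2, and siControl.1 was above siControl.2 by 1.05 ± 0.331 (SE, adjusted p = 0.129). Against siControl.1 alone the difference was 0.56 and not called (adjusted p = 0.23), and leaving out siFOXA1.1 replicate 1 ended the call as well (adjusted p = 0.0776). It was also lost by limma on TPM and in the fit of all 16 libraries (adjusted p = 0.061 and 0.0867), 4 of 18 alternatives in all. Its neighbours had log2 differences of -0.02 for HOXB4, 0.45 for HOXB6 and 0.32 for HOXB7, none of them called, and no test compared them with HOXB5. The HOXB sum was 126.5 ± 11.8 CPM under siControl (SD, n = 4), 158.2 ± 1.08 under siFOXA1.1 and 90.9 ± 9.34 under siFOXA1.2 (SD, n = 2 each), and the siFOXA1.1 libraries lay above all others in CPM. In TPM they overlapped the controls, at 125.44 and 141.01 against 107.09 to 127.27 under siControl. As a share of the family's CPM it was 52.1% under siControl and 72.9% under siFOXA1.1.

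The other members with at least 20 counts on average in RT112 were not called. HOXB7 had 412 and 343 counts under siFOXA1.1 and 291 and 305 under siFOXA1.2. HOXB8 had 79 and 205 under siFOXA1.1 and 122 and 35 under siFOXA1.2, HOXB3 65 and 134 then 79 and 66, HOXB4 83 and 83 then 4 and 75, and HOXB6 80 and 70 then 82 and 12. In HOXA, HOXA3 had 103 and 38 then 138 and 172, and HOXA5 110 and 74 then 145 and 53. The libraries of a pair differed by several fold for HOXB4, HOXB6, HOXB8 and HOXA3, so differences of that size were not detectable here. HOXC13 had 41 and 79 then 48 and 63, and HOXC9 49 and 11 then 10 and 26. HOXA9 and HOXA10 remained at 0 under both FOXA1 siRNAs. Of the 15 members at this level, 5 had both siFOXA1.1 libraries below all 4 siControl libraries in CPM (HOXA3, HOXA13, HOXD8, HOXD9 and HOXD11) and none had both above, where 30% and 18.7% of all genes at this level did.

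With siFOXA1.2 in RT112, edgeR called 0 of 26 members, 2 were at an unadjusted p under 0.05, and DESeq2 and limma called 0, where 1.78% of all genes were called, 0.877% higher and 0.899% lower. HOXB5, 1 of the 2, was at -0.66 ± 0.296 on the log2 scale (SE, adjusted p = 0.393). Between the 2 controls 0 members were called of 26, 1 at an unadjusted p under 0.05, against 2.11% of all genes, 1.1% higher and 1.01% lower. With both FOXA1 siRNAs pooled, 0 of 21 members were called, 1 at an unadjusted p under 0.05, against 0.108% of all genes, 0.0417% higher and 0.0667% lower. Of the 15 members with at least 20 counts, HOXB7 had both siFOXA1.2 libraries below all siControl libraries in CPM and HOXA3 had both above, where 11.6% and 8.95% of all genes did.

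Of 18 noncoding RNAs of the clusters 5 were tested with siFOXA1.1 in RT112 and 2 fell, HAGLROS and HOXA-AS2, where 15.1% of all genes did. HAGLROS, an RNA that starts upstream of HOXD1, had 0 counts in both siFOXA1.1 libraries, 40, 18, 93 and 24 under siControl and 28 and 26 under siFOXA1.2, at least 13.4-fold lower than siControl (adjusted p = 0.00103). HOXA-AS2, which runs antisense over HOXA3 and HOXA4, had 41 and 22 counts under siFOXA1.1, 158, 102, 152 and 81 under siControl and 137 and 137 under siFOXA1.2, a log2 difference of -1.75 ± 0.430 (SE, adjusted p = 0.00406). The median log2 difference of the 5 was -1.66. Genes flanking the clusters gave 2 higher and 4 lower of 14 tested, led by HNRNPA1 beside HOXC (-1.31 ± 0.137 SE, adjusted p = 5.72e-07) and including LNPK beside HOXD (-1.37 ± 0.227 SE, adjusted p = 0.000106).

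**Figure D4:**
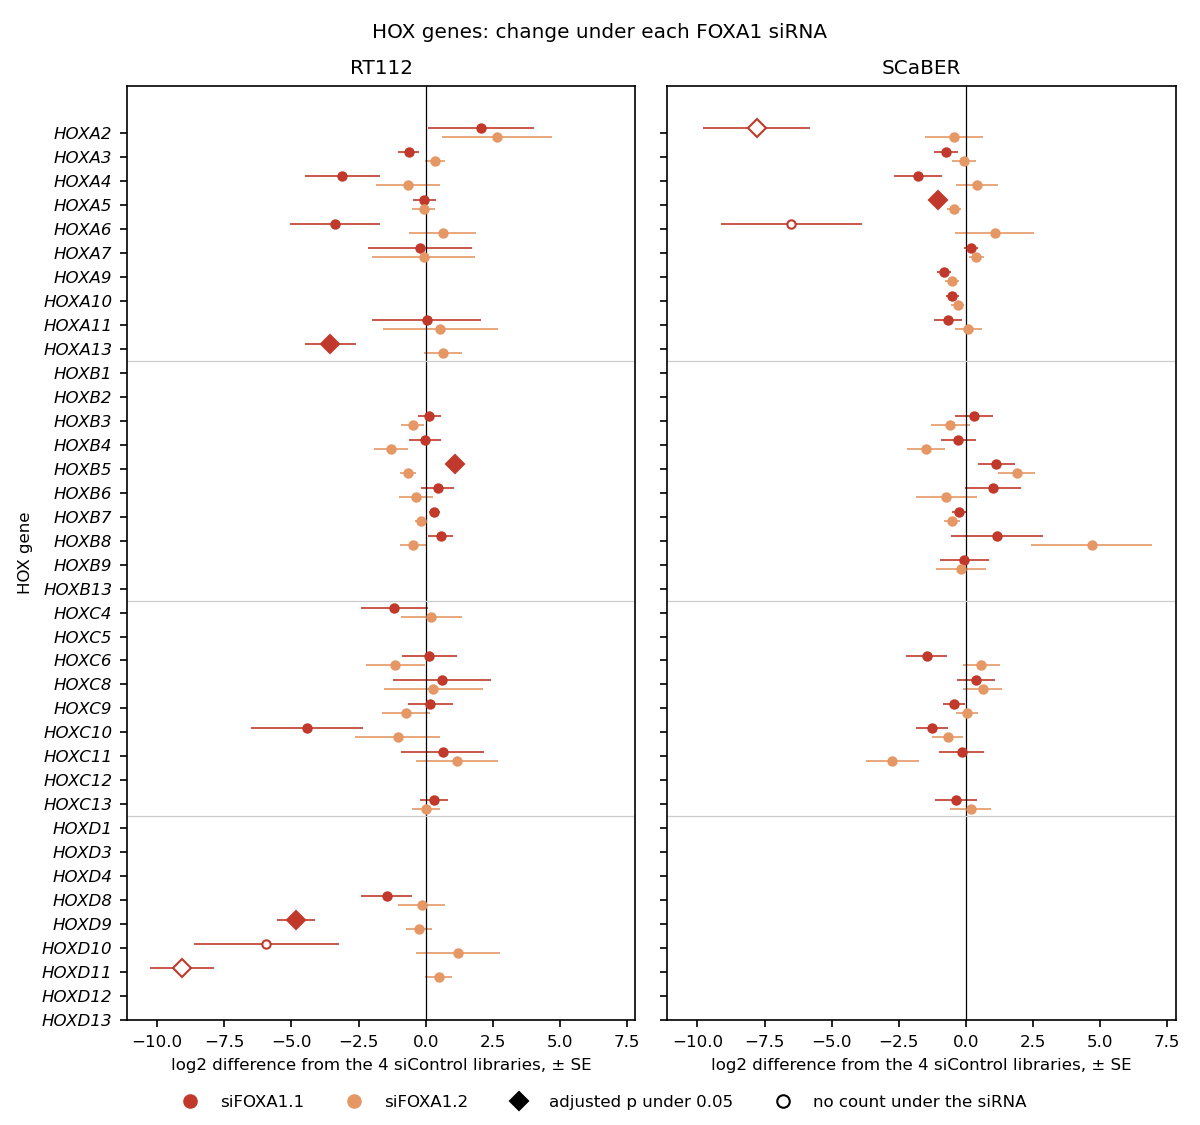
Log2 difference of the tested HOX genes shown (rows) from the 4 siControl libraries under siFOXA1.1 (dark) and siFOXA1.2 (light) in RT112 and SCaBER, with SE bars. Diamonds passed an adjusted p of 0.05, namely HOXD11, HOXD9, HOXA13 and HOXB5 in RT112 and HOXA2 and HOXA5 in SCaBER, all with siFOXA1.1, and open symbols had no count under the siRNA, so their value is no bound.

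Lists of HOX cofactors and regulators are given for siFOXA1.1 in RT112 beside the 29.1% of all genes called there, 14% higher and 15.1% lower. PBX3, a HOX partner, had a log2 difference of -2.94 ± 0.408 (SE, adjusted p = 1.60e-05), while PBX4 rose by 0.92 ± 0.312 (SE, adjusted p = 0.0314). Of the 7 cofactors tested 1 rose and 2 fell, and the summed level of the 9 listed went from 291 to 376 CPM under siControl to 177 to 185 under siFOXA1.1 and 398 to 430 under siFOXA1.2. Of 27 Polycomb genes 5 rose and 5 fell, among the latter EZH2, the methyltransferase of the silencing mark, at -1.22 ± 0.1996, and PHF19 at -2.05 ± 0.300 (SE, adjusted p = 9.39e-05 and 2.91e-05). CBX6 rose by 0.79 ± 0.102 and PHC1 by 2.49 ± 0.424 (SE, adjusted p = 6.39e-06 and 0.000146). Trithorax genes and H3K27 demethylases gave 1 higher and 4 lower of 19, led by MLLT1 at -1.04 ± 0.253 (SE, adjusted p = 0.00362). Of 9 retinoic acid genes, the pathway known to open the clusters in the embryo, 3 fell, RXRA at -0.76 ± 0.139, DHRS3 at -0.76 ± 0.182 and ALDH1A3 at -0.41 ± 0.123 (SE, adjusted p = 0.000331, 0.0034 and 0.0157). With siFOXA1.2 ALDH1A3 was the 1 gene called over these lists (-0.78 ± 0.125 SE, adjusted p = 0.00139). None of the 2 CDX and ParaHox genes tested was called.

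Under siFOXA1.1 in SCaBER 2 of 23 members tested fell, HOXA2 and HOXA5, and none rose, against 7.87% of all genes called, 3.8% higher and 4.07% lower. The members' median log2 difference was -0.36, against 0.01 for all genes, and 17 of the 23 were below 0. HOXA2 had 0 counts in both siFOXA1.1 libraries, 49, 20, 17 and 22 under siControl and 37 and 6 under siFOXA1.2, at least 9.42-fold lower than siControl (adjusted p = 0.026). HOXA5 had 106 and 181 counts under siFOXA1.1, 263, 250, 375 and 225 under siControl and 214 and 225 under siFOXA1.2, a log2 difference of -1.02 ± 0.274 (SE, adjusted p = 0.0318). Both genes had their siFOXA1.1 libraries below all siControl libraries in CPM. The call of HOXA2 was lost in 7 of 18 alternatives and that of HOXA5 in 8 of 18, each time at adjusted p-values between 0.0531 and 0.165, among them the fit of all 16 libraries and the omission of siControl.1 replicate 1, of siControl.2 replicate 1 or of siControl.2 replicate 2.

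HOXA9 and HOXA10, the members that set SCaBER apart, did not pass the test. In CPM HOXA9 lay below all its siControl libraries under both FOXA1 siRNAs, whereas HOXA10 overlapped its siControl libraries under both. HOXA9 had 147 and 240 counts under siFOXA1.1 and 224 and 271 under siFOXA1.2, and its log2 difference under siFOXA1.1 was -0.81 ± 0.263 (SE, adjusted p = 0.0759). HOXA10 had 208 and 342, then 306 and 348, with -0.50 ± 0.237 under siFOXA1.1 (SE, adjusted p = 0.237). HOXA10-AS had 227 and 160 counts under siFOXA1.1 against 321 to 464 under siControl, and fell by 1.06 ± 0.309 (SE, adjusted p = 0.0473), the 1 called of 10 noncoding RNAs tested. HOXA7 had 306 and 249 counts, within the siControl range of 135 to 375, and HOXA11 39 and 40 against 41 to 101. HOXA4 had 5 and 11 counts and HOXA6 0 and 0 under siFOXA1.1, against 21 to 34 and 0 to 22 under siControl, and neither was called (adjusted p = 0.268 and 0.164). The summed level of HOXA was 263 ± 20.7 CPM under siControl (SD, n = 4), 174 ± 9.14 under siFOXA1.1 and 229 ± 4.50 under siFOXA1.2 (SD, n = 2 each), and the siFOXA1.1 libraries lay below all others. HAGLROS, which fell in RT112, had 0 counts in both siFOXA1.1 libraries of SCaBER too. There it had 8, 5, 9 and 12 counts under siControl and 5 and 16 under siFOXA1.2. It was at least 3.10-fold lower under siFOXA1.1 than under siControl, and was not called.

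**Figure D5:**
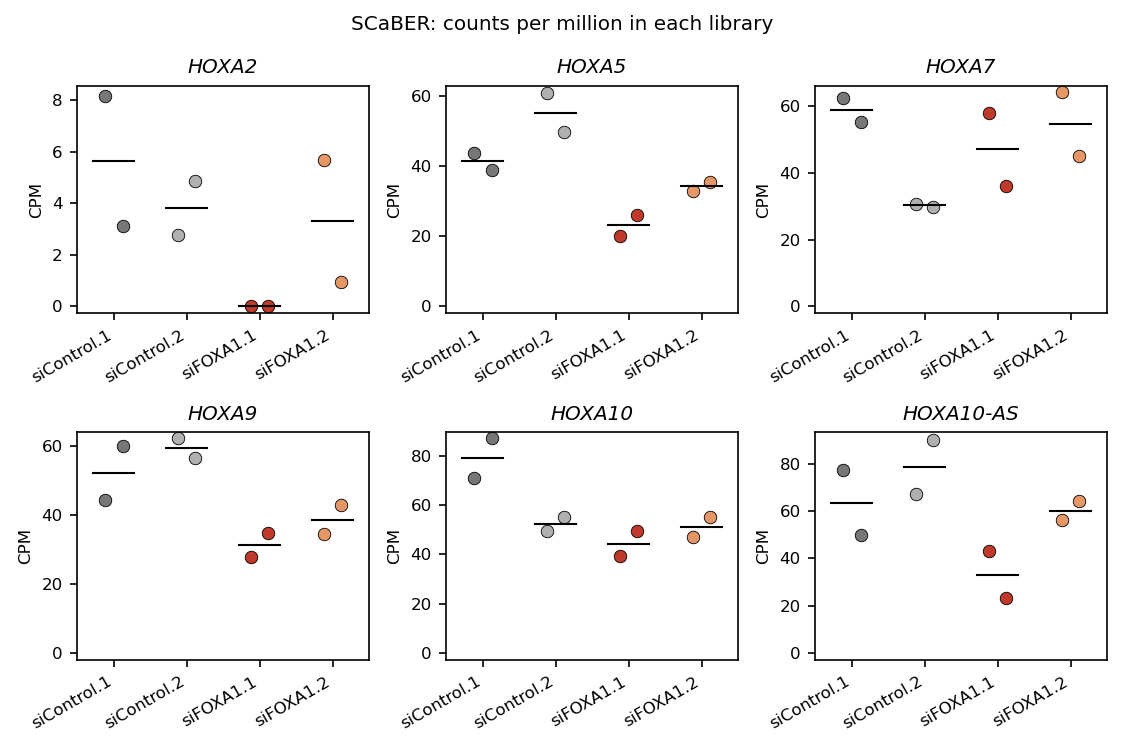
CPM of 5 HOXA genes and HOXA10-AS in each SCaBER library (points) by siRNA, with the mean of the 2 libraries as a line. HOXA2 is at 0 under siFOXA1.1, HOXA5 and HOXA9 lie below their controls under both FOXA1 siRNAs, and HOXA7 does not separate.

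The other members of SCaBER were not called by edgeR, while DESeq2 called 3 members for siFOXA1.1 against edgeR's 2, and limma 1. In HOXB, HOXB7 had 129 and 244 counts under siFOXA1.1 and 165 and 151 under siFOXA1.2, HOXB5 53 and 21 then 50 and 92, HOXB4 17 and 75 then 23 and 16, HOXB3 40 and 37 then 21 and 24, HOXB6 12 and 69 then 14 and 9, and HOXB9 23 and 28 then 7 and 42. HOXB8 was at 3 and 0 under siFOXA1.1 and at 44 and 0 under siFOXA1.2. In HOXC, HOXC9 had 77 and 57 then 111 and 94, HOXC10 34 and 46 then 104 and 23, HOXC8 14 and 64 then 55 and 35, HOXC6 14 and 10 then 54 and 55, HOXC11 31 and 25 then 6 and 4, and HOXC13 8 and 55 then 25 and 62. Among HOXA, HOXA3 had 28 and 93 then 89 and 101, HOXA7 416 and 283 under siFOXA1.2, and HOXA11 68 and 75. HOXD had few counts, with HOXD8 at 7 counts and HOXD10 at 3 in siFOXA1.1 replicate 2, HOXD8 at 4 in siFOXA1.2 replicate 2 and the rest at 0, and HOXA13 had 5 counts in siFOXA1.2 replicate 2 alone. Of the 20 members with at least 20 counts on average, 4 had both siFOXA1.1 libraries below all siControl libraries in CPM (HOXA4, HOXA5, HOXA9 and HOXC10), where 16.8% of all genes at this level did. Under siFOXA1.2 5 did (HOXA5, HOXA9, HOXB4, HOXB7 and HOXC11), against 8.43%, and 1, HOXB5, had both above, against 7.44%.

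With siFOXA1.2 in SCaBER edgeR called 0 of 23 members, 2 at an unadjusted p under 0.05, and DESeq2 and limma called 0, against 0.0373% of all genes, 0.0224% higher and 0.0149% lower. Between siFOXA1.1 and siFOXA1.2 edgeR called 0 of 23, 5 at an unadjusted p under 0.05, DESeq2 1 and limma 0, against 4.13% of all genes, 1.72% higher and 2.42% lower. Between the controls 0 of 23 were called, 3 at an unadjusted p under 0.05, against 0.0671% of all genes, 0.0448% higher and 0.0224% lower, and with both FOXA1 siRNAs pooled 0 of 22, 3 at an unadjusted p under 0.05, against 0.0084%. Of the Polycomb genes 3 of 27 fell with siFOXA1.1, where 4.07% of all genes did, PHF19 at -1.65 ± 0.281, EZH2 at -1.39 ± 0.254 and SUZ12 at -0.78 ± 0.18004 (SE, adjusted p = 0.00187, 0.00294 and 0.014). None of the 7 cofactors tested was called, and 2 of 11 retinoic acid genes fell, ALDH1A3 at -1.55 ± 0.267 and CRABP2 at -0.76 ± 0.223 (SE, adjusted p = 0.00207 and 0.0492). The summed luminal markers, with KRT20, UPK1A and UPK3A at 0 under siControl, were 767 to 1029 CPM under siControl, 461 to 523 under siFOXA1.1 and 860 to 867 under siFOXA1.2. KRT18 made up most of that sum, at a mean of 838 CPM under siControl. With siFOXA1.1, 1 of the 6 luminal markers tested was called lower, and none of the 9 basal markers tested was called. The part of the markers in the HOX values was not tested.

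Whether the responses differ between the lines was tested as an interaction. For siFOXA1.1 edgeR called 0 of 31 members, 4 at an unadjusted p under 0.05, while DESeq2 and limma called 2 each, against 2.59% of all genes, 1.03% higher and 1.55% lower. For siFOXA1.2 edgeR called 0 of 31, 3 at an unadjusted p under 0.05, and DESeq2 and limma 0, against 0.0453% of all genes, 0.0194% higher and 0.0259% lower. The siFOXA1.1 interaction of HOXD9, HOXD11 and HOXA13 could not be estimated, because their SCaBER libraries of that comparison are all at 0. These 3 are among the 31 members, so the 0 of 31 says nothing about them. HOXA2, at 0, 0, 16 and 4 counts under siControl and 7 and 1 under siFOXA1.1 in RT112, was not called for the interaction (adjusted p = 0.0819). Its log2 value of 9.90 is neither an estimate nor a bound, because both SCaBER siFOXA1.1 libraries are at 0. HOXA5 had an interaction of 0.96 on the log2 scale (95% interval -0.0457 to 1.97). HOXB5 had the smallest p for siFOXA1.2, with -2.54 ± 0.665 (SE, adjusted p = 0.372), lower in RT112 and higher in SCaBER against the controls. A call in 1 line and not in the other was therefore not shown to be a difference between them.

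The same lists between the lines are to be read beside the 43.4% of all genes called there, 21.2% higher and 22.2% lower. Under siControl MEIS2 was higher in RT112 by 1.86 ± 0.224, MEIS1 by 3.48 ± 0.619 and PBX4 by 1.33 ± 0.332 (log2 ± SE, adjusted p = 8.56e-06, 0.000324 and 0.0045), and 4 of the 6 cofactors tested were called higher and none lower. Of 27 Polycomb genes 6 were higher and 7 lower in RT112, of 20 Trithorax genes and H3K27 demethylases 3 and 3, and of 14 flanking genes 3 and 3. PSIP1, a chromatin reader, had no count in the 4 RT112 siControl libraries and 71.8 ± 5.45 CPM in SCaBER (SD, n = 4). CDX2, a regulator of posterior HOX genes in the embryo and gut, had 3.43 ± 0.985 CPM in RT112 (SD, n = 4) and 0 in the SCaBER siControl libraries. Of 18 HOX noncoding RNAs 6 were tested, 1 higher in RT112 and 2 lower.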

How the data were processed

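Counts per gene were made by the authors with STAR 2.6.1a on hg38 and GENCODE 29, after trimming with TrimGalore 0.6.2 (minimum quality 20, minimum length 10), from single-end 3' libraries, and were deposited unnormalized beside TPM values, which the authors derived per gene length. The study's methods name hg19, and the dose is 10 nM in the labels but given otherwise in the methods. From the deposited counts, edgeR 4.0.16 (R 4.3.3) quasi-likelihood tests with TMM, its filter on low counts and Benjamini-Hochberg adjustment over all genes were run per line at 0.05. Alternatives were DESeq2 1.42.0, limma 3.58.1 on log2(TPM + 1) for a mean TPM of at least 1, other scalings, no filter, a replicate block, a fit of all libraries, 1 control alone and leaving out each library. The script was tested on simulated counts with a fixed spread, where changed genes had a mean of at least 20 counts. A true log2 change of 1 was recovered for 6% of them for siFOXA1.1 in RT112 and 13% in SCaBER. For the siFOXA1.1 interaction that share was 2%. A true log2 change of 2 was recovered for 89%, 76% and 30% in the same order. Members that were not called may therefore have changed. Members with a mean of at least 20 counts in a line or called in any comparison were given per library, and up to 4 genes per list with the smallest p. Members and lists were chosen with earlier results of these data known. Replicate numbers are labelled as experiment batches and so pair libraries. Deviations of same-numbered libraries correlated at -0.0127 to 0.0154 in RT112 and -0.0013 to 0.207 in SCaBER over 11204 genes. Of the 39 members, 15 share exon bases with another gene on the same strand and 20 with an antisense gene. The individual values of some genes are not reported here, although counts and sums over lists include them.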

Additional observations from a re-analysis of the deposited data

Results flagged for a closer look

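In each line the 4 libraries of the siControls, and the 4 of the FOXA1 siRNAs, were checked for 1 library far from the other 3, over 70 groups of 4, where chance flags about 1 in 20. In RT112 HOXB7 stood apart at 58.9 CPM in siControl.1 replicate 2, HOXB4 at 0.583 CPM in siFOXA1.2 replicate 1 and HOXB6 at 1.64 CPM in siFOXA1.2 replicate 2. In SCaBER siFOXA1.1 replicate 2 stood apart for HOXB4 at 10.8 CPM, HOXB6 at 9.98 CPM and HOXB7 at 35.3 CPM.

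The 2 FOXA1 siRNAs differed in RT112 by a test of the difference itself. The log2 difference of siFOXA1.1 from siFOXA1.2 was -9.56 for HOXD11, which had no count with siFOXA1.1 so that the value is no bound, -4.57 for HOXD9, -4.20 for HOXA13 and 1.74 for HOXB5.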

How the results depend on the processing

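No member's call reversed under any alternative run. The replicate block kept 4 called members for siFOXA1.1 in RT112 and 2 in SCaBER and changed no call. The fit of all 16 libraries called 2 members for the pooled siRNAs in RT112, against 0, and 0 for siFOXA1.1 in SCaBER, against 2, where limma and siControl.1 alone called 1 each. Between the FOXA1 siRNAs in SCaBER, DESeq2 and no filter called 1 each, against 0. For the siFOXA1.1 interaction DESeq2 called 2, limma 2 and no filter 1, and for siFOXA1.2 no filter called 2, against 0. Causes were not tested. Leaving out 1 library gave 15 to 18 members between the lines, 4 to 6 for siFOXA1.1 in RT112, 4 to 7 between its FOXA1 siRNAs (7 without siFOXA1.1 replicate 1), 0 to 1 for siFOXA1.2 in RT112 (1 without siFOXA1.2 replicate 2), 0 to 2 for siFOXA1.1 in SCaBER, and 0 in the other comparisons. In SCaBER the 2 became 0 without siControl.1 replicate 1, siControl.2 replicate 1, siControl.2 replicate 2 or siFOXA1.1 replicate 1, and 1 without siFOXA1.1 replicate 2 or either siFOXA1.2 library. An alternative filter by target was added after seeing the data and changed no call. Members at or under 3 counts, up to 0.453 CPM in RT112 and 0.662 CPM in SCaBER, cannot be told from absent at this depth.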
